A study of Mus musculus with 2 samples.

Results

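Rpl22 and Rpl22l1 are paralogous genes for a protein of the large subunit of the cytosolic ribosome. They were taken from 22421 genes by their RefSeq accessions: of the 28430 transcript rows deposited for each library, 1 row belonged to Rpl22 (NM_009079) and 1 to Rpl22l1 (NM_026517), so 2 rows of 2 genes are described. They were selected with the difference between these libraries already known, so their values are a description. RNA was sequenced from CGR8, a feeder-free mouse embryonic stem cell line grown on gelatin in serum with leukaemia inhibitory factor. One group was given a negative siRNA and the other an siRNA against Set1a, listed as Setd1a, which encodes a methyltransferase of histone H3 lysine 4. In each, cells were transfected repeatedly over 72 hours, and each group held 1 library. The comparison asked how lowering SET1A affects gene expression. With 1 library per group, no p-value and no replicate error can be given, and every difference is between these 2 libraries.

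The protein encoded by Rpl22 binds RNA and sits on the outer surface of the large subunit. Ribosomes can form without it, and the product of Rpl22l1 can occupy the same place. In mice lacking Rpl22, Rpl22l1 is known to rise, and Rpl22 protein is known to bind Rpl22l1 RNA and lower its level. The pair is best known for distinct roles in blood cell and T cell development.

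A stretch of each coding sequence is shown because a sequencing read can be counted for either gene only where they are alike. The stretches run from base 85 to base 378 in Rpl22 and from base 70 to base 360 in Rpl22l1, counted from the first coding base. They come from GENCODE M21 transcripts of GRCm38 and are written 5′ to 3′. Capitals mark the 2 stretches of at least 11 bases that are identical in the alignment of Rpl22 and Rpl22l1.
Rpl22: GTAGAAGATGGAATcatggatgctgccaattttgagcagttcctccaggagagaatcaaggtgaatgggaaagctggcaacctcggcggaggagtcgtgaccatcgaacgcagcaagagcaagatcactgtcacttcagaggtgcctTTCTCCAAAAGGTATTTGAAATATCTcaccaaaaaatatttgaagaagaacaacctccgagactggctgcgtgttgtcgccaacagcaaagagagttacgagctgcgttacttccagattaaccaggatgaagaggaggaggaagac
Rpl22l1: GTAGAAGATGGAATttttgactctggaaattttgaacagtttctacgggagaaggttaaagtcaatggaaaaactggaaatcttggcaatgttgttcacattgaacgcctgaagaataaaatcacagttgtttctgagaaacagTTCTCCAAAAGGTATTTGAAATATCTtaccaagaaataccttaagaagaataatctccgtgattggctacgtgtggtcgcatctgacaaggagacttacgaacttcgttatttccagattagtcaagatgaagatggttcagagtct
The whole coding sequence of Rpl22 has 387 bases and that of Rpl22l1 has 369, and 259 of 369 aligned bases (70.2%) are identical. The longer capital stretch, of 26 bases, is the longest run that the whole transcripts share. Rpl22l1 is also poorer in G and C, with 39.6% of coding bases against 48.3% in Rpl22. The read length is not given in the sources used here.

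Other copies are closer than the paralogs are to each other. Processed pseudogenes, copies of a spliced RNA inserted elsewhere in the genome, were found by BLAST of both coding sequences against all GENCODE transcripts. For Rpl22, Gm12005 (95.8% identical), Rpl22-ps1 (93.5%), Gm13196 (92.3%) and Gm9457 (91.3%) were the nearest, and none of these 4 has a row in the deposited tables. For Rpl22l1, Gm2157 (95.1%) and Gm4910 (92.1%) have no row, nor does Gm16053, which is 98.1% identical over a part of 157 bases. Gm15421, a transcribed pseudogene on chromosome 5, does have a row. The part that matches bases 70 to 360 of the Rpl22l1 coding sequence is shown because it can take reads of Rpl22l1, and capitals mark the bases that differ from Rpl22l1.
Gm15421: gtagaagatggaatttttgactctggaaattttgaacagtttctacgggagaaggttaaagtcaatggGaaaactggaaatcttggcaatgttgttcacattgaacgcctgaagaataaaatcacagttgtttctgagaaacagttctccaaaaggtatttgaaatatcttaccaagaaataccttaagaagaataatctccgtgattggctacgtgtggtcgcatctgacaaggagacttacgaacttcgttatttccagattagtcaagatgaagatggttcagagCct
Over all 369 coding bases it differs from Rpl22l1 at 2 positions, A138G and T358C, counted from 1 at the first coding base with the Rpl22l1 base first. The longest identical run is 219 bases.

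Expression was given in RPKM, which divides a read number by transcript length and library depth. The depth that turns these values back into whole reads was 6655821 reads with the negative siRNA and 6421185 with the Set1a siRNA. Setd1a itself registered 14.2 RPKM with the negative siRNA and 11.97 RPKM with the Set1a siRNA (ratio 0.846, counting interval 0.746 to 0.959). With 1 RPKM added to each value, its log2 difference was -0.22. The lower quartile over all genes whose mean reached 1 RPKM was -0.14, so the Setd1a difference was small. SET1A protein was not measured in these data. The 8 embryonic stem cell markers examined lay between 79.5 and 2004 RPKM in the negative siRNA library. None of 4 primitive endoderm and 3 mesoderm markers reached a mean of 1 RPKM, while 1 of 3 trophectoderm, 3 of 3 neural and 1 of 4 fibroblast markers did, at no more than 3.86 RPKM in either library. Of the 8 stem cell markers, 4 were higher and 4 lower with the Set1a siRNA. Their summed RPKM went from 4409 to 4119, and Dppa5a alone went from 2004 to 1692 RPKM, a larger drop than that of the sum. Over the 17 markers of other cell types, 4 of which were at 0 in both libraries, the sum went from 11.4 to 15.7. Counting intervals lay below 1 for the stem cell markers Dppa5a (ratio 0.844, 0.817 to 0.872) and Sox2 (0.875, 0.835 to 0.917) and above it for Tdgf1 (1.09, 1.06 to 1.13). They also lay above 1 for Eomes, a trophectoderm marker (1.48, 1.06 to 2.10), and for the fibroblast markers Pdgfrb (2.38, 1.31 to 4.48) and Col1a1 (5.70, 1.35 to 26.3, on about 3 and 14 reads). The part of these shifts in the Rpl22l1 difference was not tested.

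Rpl22l1 was lower with the Set1a siRNA, at 106 RPKM, than with the negative siRNA, at 217 RPKM. These values correspond to 326 and 690 reads over a row of 477 bases, the length with whole reads nearest to the annotated 552. The Set1a siRNA value was 51.0% lower, a ratio of 0.490 with an exact Clopper-Pearson 95% counting interval of 0.428 to 0.560. On the log2 scale with 1 RPKM added to each value, the difference was -1.02. Such intervals cover counting error only and say nothing of variation between cultures.

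Rpl22 differed little, with 267 RPKM under the negative siRNA and 254 RPKM under the Set1a siRNA. Their ratio was 0.950, and the log2 difference was -0.07. The values fit whole reads for row lengths of 680 bases and its multiples, of which 2040 is nearest to the annotated 2051. That length gives 3630 and 3327 reads and a counting interval of 0.906 to 0.996. The shortest length gives 1210 and 1109 reads and an interval of 0.875 to 1.03, which includes 1, so whether the Rpl22 difference exceeds counting error depends on the row length.

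**Figure D1:**
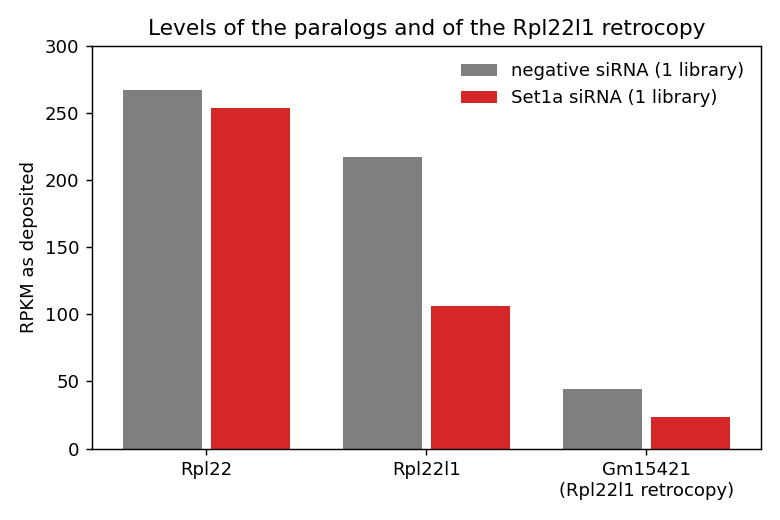
Deposited RPKM (vertical axis, from 0) of Rpl22, Rpl22l1 and the pseudogene Gm15421, with 1 bar per library and no replicates. Rpl22 stands at 267 and 254 RPKM, Rpl22l1 at 217 and 106 RPKM and Gm15421 at 44.5 and 23.6 RPKM.

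Between the libraries the paralogs differed unequally: Rpl22l1 was 51.0% lower and Rpl22 5.00% lower. The log2 difference of Rpl22l1 minus that of Rpl22 was -0.95. The odds ratio of their reads was 0.516, with an exact conditional interval of 0.447 to 0.594, or 0.440 to 0.604 with the smaller read numbers of Rpl22. A change in library scaling acts on both genes alike and cancels in this value. Rpl22l1 made up 44.8% of the summed RPKM of the pair with the negative siRNA (interval 42.8% to 46.9%) and 29.5% with the Set1a siRNA (27.2% to 32.0%). The summed level went from 485 to 360 RPKM, 25.6% lower, and 89.2% of that difference lay in Rpl22l1.

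**Figure D2:**
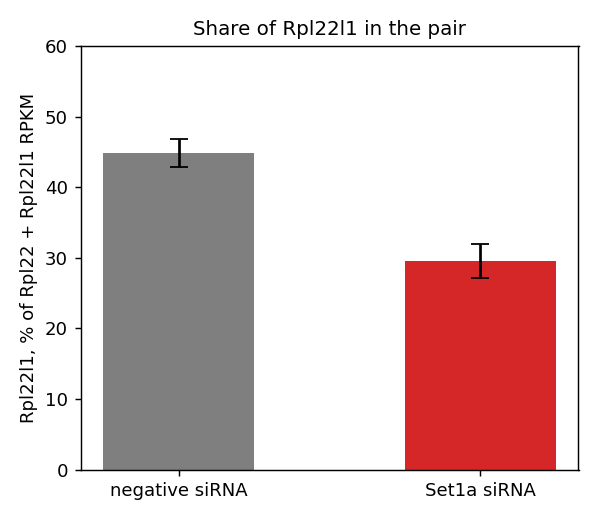
Share of Rpl22l1 in the summed RPKM of Rpl22 and Rpl22l1 (vertical axis, percent, from 0) in the 2 libraries, with 95% counting intervals as bars. The share is 44.8% with the negative siRNA and 29.5% with the Set1a siRNA. The intervals use the Rpl22 reads of a 2040-base row. They cover counting error only and say nothing of variation between cultures.

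These shares depend on the length given to Rpl22. GENCODE also holds a short Rpl22 form of 474 bases with the same coding sequence, which ends before most of the long 3' untranslated part. If all Rpl22 reads came from that form, its level would be 1151 and 1093 RPKM, and the share of Rpl22l1 would be 15.9% and 8.87%. The summed level would go from 1368 to 1200 RPKM, 12.3% lower, with 65.9% of the difference in Rpl22l1. These values use the 3630 and 3327 reads that a 2040-base row gives. With the 1210 and 1109 reads of a 680-base row, Rpl22 on the short form would be lower and the share of Rpl22l1 higher. The percent by which the sum was lower, and its part in Rpl22l1, would be higher too. All would be nearer to the main values. The ratio of Rpl22 between libraries is nearly the same on each of these lengths. Which form the cells carried was not tested.

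The pseudogene row was lower with the Set1a siRNA as well. Gm15421 registered 44.5 RPKM with the negative siRNA and 23.6 RPKM with the Set1a siRNA (ratio 0.531, interval 0.424 to 0.663). Its values fit whole reads for 270 bases and its multiples, and 810 bases, the RefSeq length of the gene, gives 240 and 123 reads. The shortest length gives 80 and 41 reads, with which the interval would be wider. The intervals, percentages and sums given here use the 810-base reads. At that length the read numbers were 34.8% and 37.7% of those of Rpl22l1. The ratio of Gm15421 divided by that of Rpl22l1 was 1.08 (0.833 to 1.41). Summed over both rows, 930 and 449 reads gave a ratio of 0.5004 (0.446 to 0.561). How reads that match both rows were counted is not given in the sources used here. Reads of 1 gene may therefore appear in both rows, and the level of each is uncertain. If reads were counted in both, the interval of the sum is too narrow. An annotated antisense RNA, Gm33051, matches 127 coding bases of Rpl22l1 on the opposite strand, at 100% identity. Without a stated strand setting, its reads there cannot be told apart from those of Rpl22l1.

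Rpl22l1 was the gene with the lowest log2 difference among the 502 genes whose mean level lay within 2-fold of its own, where the median was -0.01 and 98.8% of genes lay within 1.5-fold. Across the 11787 genes whose mean reached 1 RPKM, 44 lay below Rpl22l1, while 0.407% were at least 2-fold lower and 0.764% at least 2-fold higher. Across the 1119 genes whose mean reached 50 RPKM, 0.0894% were at least 2-fold lower, which is Rpl22l1 alone, and the same share was higher. Rpl22l1 itself stood near that limit: its log2 difference was -0.9965 with 5 RPKM added in place of 1 and -0.99 with the reads of Gm15421 added, both just short of 2-fold. As the gene was selected on this difference, these counts describe its place. Rpl22 lay in the body of the distribution, with 4152 genes (35.2%) below it and a median of -0.02 over the 266 genes of like level.

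Likeness over the 2 libraries was measured as the absolute difference in log2 value among genes of like level. Rpl22l1 was the lowest of these, and its distance from them goes with that place. Gm15421, at -0.88, and the 44 genes below Rpl22l1 lay outside this level. Within it, the nearest to Rpl22l1 was Ifitm3, an interferon-inducible membrane protein gene, at 177 and 102 RPKM and 0.24 away. The microRNA precursor Mir3064 was 0.47 away, on about 70 and 46 reads, and Psat1, an enzyme of serine synthesis, was 0.48 away at 160 and 109 RPKM. For Rpl22 the nearest were Impdh2, an enzyme of guanine nucleotide synthesis, at 169 and 161 RPKM, Atp5o, a subunit of ATP synthase, at 159 and 151 RPKM, and Set, a histone chaperone gene, at 316 and 300 RPKM. Each was within 0.0015 of Rpl22. With 2 libraries, likeness means only a similar ratio.

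The other cytosolic ribosomal protein genes held their level within 1.5-fold. Of 78 listed genes, 0 were at least 2-fold higher or lower, 59 were lower and 19 higher, and the median log2 difference was -0.08, against 0.0065 over all genes. In the large subunit, 36 of 46 were lower, from Rpl39 at 905 and 705 RPKM (-0.36) and Rpl36a at 842 and 670 RPKM (-0.33) to Rpl27 at 666 and 702 RPKM (0.08) and Rpl29 at 718 and 790 RPKM (0.14). In the small subunit, 23 of 32 were lower, from Rps28 at 814 and 602 RPKM (-0.43) and Rps29 at 1245 and 981 RPKM (-0.34) to Rps19 at 686 and 714 RPKM (0.06) and Rps23 at 1972 and 2094 RPKM (0.09). None of the 78 had a lower value than Rpl22l1, and 44 had a lower value than Rpl22.

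**Figure D3:**
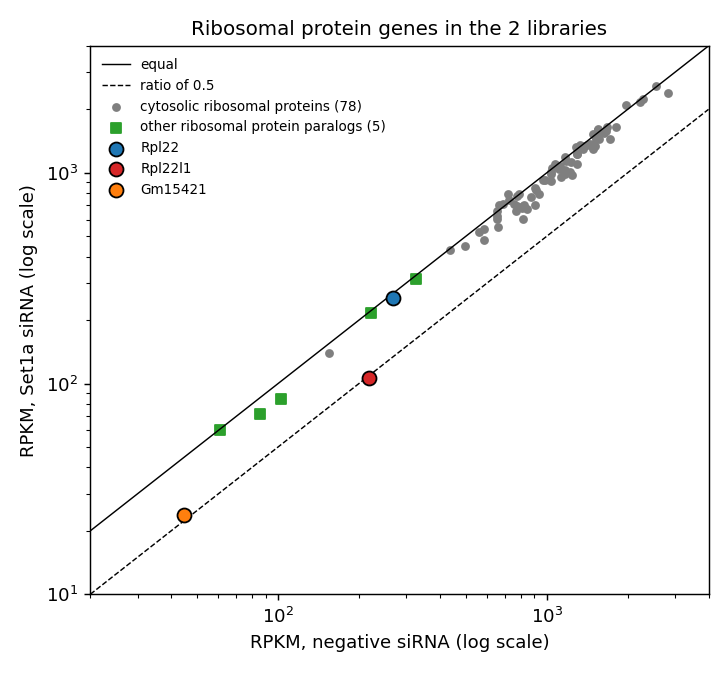
RPKM in the negative siRNA library (horizontal, log scale) and in the Set1a siRNA library (vertical, log scale), with 1 point per gene; the solid line marks equal values and the dashed line a 2-fold lower value. Rpl22 and the ribosomal protein genes lie along the solid line, and Rpl22l1 and Gm15421 lie by the dashed one.

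The ribosomal protein genes are also given by transcript length. All 11 ribosomal protein genes with a transcript under 500 bases were lower, with a median of -0.24, and 48 of the 67 longer ones were, with a median of -0.07. These are annotated lengths. The annotated length of Rpl22l1, 552 bases, falls in the longer class, while its row of 477 bases is under 500. The part of transcript length in the Rpl22l1 difference was not tested. A further comparison, chosen after the values were seen, took genes within 2-fold of the level of Rpl22l1. Their annotated length lay within 1.25-fold of its 477-base row. These 36 genes had a median of 0.03, and the lowest of them was Rps19-ps3, at -0.36. They are part of the 502 genes of like level, where Rpl22l1 was lowest. That none was as low as Rpl22l1 was therefore given beforehand. The 11 ribosomal protein genes under 500 bases lay above this level and are not among them.

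By level, Rpl22 and Rpl22l1 stood at the lower end of the ribosomal protein genes. On the RPKM scale, Rpl22 was at 23.4% of their median with the negative siRNA and 24.8% with the Set1a siRNA. Rpl22l1 was at 19.0% and 10.4%. Of the 78 genes, Rps15a alone, at 155 and 140 RPKM, was below Rpl22 in both libraries, and it was below Rpl22l1 in the negative siRNA library but not in the Set1a siRNA library. The median ribosomal protein levels were 1141 and 1022 RPKM. On the 474-base form, with the reads of a 2040-base row, Rpl22 would instead stand near them, at 1151 and 1093 RPKM. With the smaller read numbers of a 680-base row it would stand lower.

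Other paralogs of ribosomal protein genes did not show a difference of that size. Of 6 listed, 5 reached a mean of 1 RPKM. All 5 were lower, with a median of -0.05, and 0 were at least 2-fold lower. Rpl36al was at 325 and 314 RPKM, Rps27l, a target of p53, at 222 and 216 RPKM, and Rpl7l1 at 60.5 and 60.1 RPKM, and each counting interval included 1. Rpl39l registered 103 and 84.2 RPKM (ratio 0.820, interval 0.721 to 0.931), and Rpl10l 85.9 and 71.7 RPKM (ratio 0.835, interval 0.738 to 0.944). Rpl3l, a muscle gene, was below the floor, at 0.547 and 0.795 RPKM. As with Rpl22l1, reads of these genes may be shared with close copies.

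Genes for assembly of the large subunit were spread around no difference. Of 25, 12 were higher and 13 lower, 0 were past 2-fold, and the median was -0.0015. The ends were Nle1, at 15.1 and 19.0 RPKM (0.32), Gnl3, for nucleostemin, at 61.1 and 71.4 RPKM (0.22), Mdn1, for a large ATPase that remodels precursor particles, at 22.0 and 19.0 RPKM (-0.20), and Sbds, which acts in late maturation, at 22.5 and 18.1 RPKM (-0.30).

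**Figure D4:**
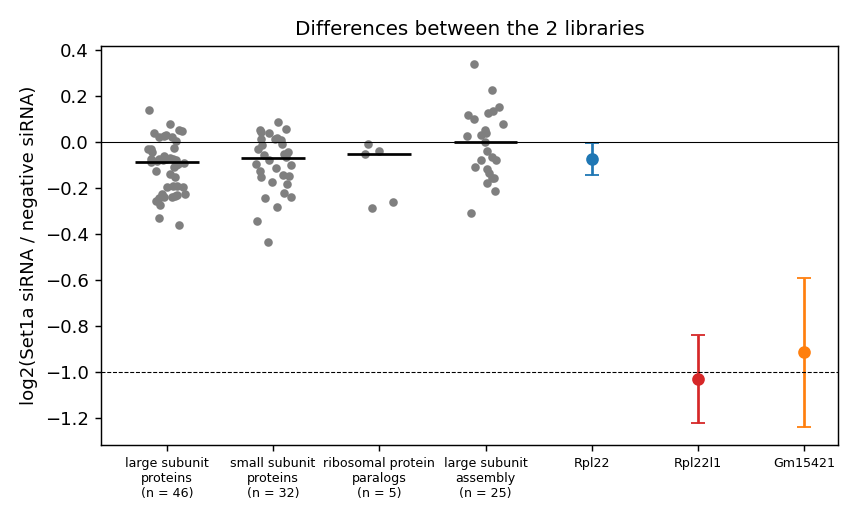
Log2 of the plain RPKM ratio, Set1a siRNA over negative siRNA (vertical axis), for the gene lists (1 point per gene, line at the median) and for Rpl22, Rpl22l1 and Gm15421 with 95% counting intervals. Points of the 4 lists lie above the dashed line of a 2-fold lower value and also above Rpl22l1.

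Among genes that have been studied beside Rpl22 or Rpl22l1, 4 of 6 were higher and 2 lower, with 0 past 2-fold and a median of 0.09. Mdm2, the ubiquitin ligase of p53, registered 16.7 and 25.1 RPKM (ratio 1.51, interval 1.31 to 1.73). Its relative Mdm4 registered 28.5 and 29.5 RPKM (ratio 1.03, interval 0.928 to 1.15). The cell cycle inhibitor gene Cdkn1a registered 11.4 and 14.4 RPKM (ratio 1.27, interval 1.01 to 1.59). Trp53, the gene of p53, registered 115 and 102 RPKM (ratio 0.886, interval 0.820 to 0.957). Of the let-7 regulators, Lin28a registered 78.0 and 85.5 RPKM (ratio 1.10, interval 1.03 to 1.17), and Lin28b 6.62 and 6.54 RPKM (ratio 0.989, interval 0.821 to 1.19).

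Neighbouring genes were read for comparison. Rpl22l1 lies on chromosome 3 and Rpl22 on chromosome 4, and the order of genes was read from the GRCm38.p6 RefSeq table after the values were seen. Of the 2 nearest listed protein-coding genes on each side of Rpl22l1, Eif5a2, which encodes a translation factor, was above 1 RPKM, with 5.12 and 4.87 RPKM (ratio 0.951, interval 0.761 to 1.19). Slc2a2, Gm1527 and Egfem1 had at most 2 reads in either library, too few to compare. Beside Rpl22, Icmt was at 9.46 and 10.6 RPKM and Chd5 at 1.55 and 1.41 RPKM, with intervals that included 1. Rnf207 and Kcnab2 were below 1 RPKM: Rnf207 registered 0.242 and 0.942 RPKM, on about 4 and 15 reads (ratio 3.89, interval 1.24 to 16.1), and Kcnab2 0.468 and 0.441 RPKM (ratio 0.942, interval 0.380 to 2.35).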

How the data were processed

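Libraries from 2 samples of CGR8 cells were used, grouped by the transfection label, 1 per group. The tables have no header; the deposited unit, RPKM, was read from the values. The submitters' processing notes name build mm9, SAMtools 0.1.16, TopHat2 2.0.12, TopHat and CASAVA, with no role or order. Not given in the sources used here are the counter, its strand setting and how it treated reads with several matches.

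Depth was the library total at which RPKM times GENCODE length gave whole reads: of values of 1 to 5 reads, 74.7% and 73.6% lay within 0.1 of a whole read. Row lengths of Rpl22, Rpl22l1 and Gm15421 were those, from 200 to under 3000 bases, that gave reads within 0.01 of whole in both libraries, nearest to the annotated length. Read numbers of other genes are approximate. Symbols came from a GRCm38.p6 RefSeq table and GENCODE M21 (98.3% of rows). As that build differs from mm9, no coordinates are given. Each gene was represented by its row with the most reads. Differences are log2((Set1a siRNA + 1)/(negative siRNA + 1)) over genes whose mean reached 1 RPKM. Differences were counted by size, at least 2-fold, with no test. Members and lists were chosen with earlier results of these data known. Named were the members, all paralogs and associated genes, the 2 highest and 2 lowest of each ribosomal and assembly list, and 3 genes most like each member; Gm15421, Gm33051, Rps15a, Rps19-ps3, the pseudogenes, the neighbours and the markers whose interval excludes 1 were added after values were seen. Varied were the pseudocount, floor, fold rule, scaling, row choice and the length of Rpl22, and reads of Gm15421 were added. Python 3.11.15, scipy 1.17.1 and BLAST 2.17.0 were used, and scripts were tested on simulated data. No amino acid sequences were used here.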

Additional observations from a re-analysis of the deposited data

How the results depend on the processing

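The log2 difference of Rpl22l1 was -1.03 and -0.9965 with pseudocounts of 0.1 and 5 RPKM, the latter just short of 2-fold. It was -1.03 with median-of-ratios scaling and -1.02 with scaling without the 50 most abundant genes. With the reads of Gm15421 added, an alternative chosen after seeing the data, it was -0.99, also just short of 2-fold. Rpl22 ranged from -0.08 to -0.07, and the difference between the paralogs from -0.96 to -0.92. Rpl22 and Rpl22l1 have 1 row each, so summing rows changed nothing. The share of Rpl22l1 in the pair, 44.8% and 29.5%, was 15.97% and 8.92% as a share of reads, not per length, and 15.9% and 8.87% with Rpl22 on its short form, added after seeing the data. On that form the summed level was 12.3% lower, against 25.6%, and 65.9% of the difference lay in Rpl22l1, against 89.2%. These alternatives change the length set against the Rpl22 reads. They use the 3630 and 3327 Rpl22 reads of a 2040-base row. With the 1210 and 1109 reads of a 680-base row, both alternative shares of Rpl22l1 would be higher, as would the 12.3% and the 65.9%. All would be nearer to the main values. The ribosomal protein median ranged from -0.09 to -0.08. The assembly median ranged from -0.0087 to 0.0030 and has no firm sign. The numbers past 2-fold, 90 higher and 48 lower, were 177 and 89 with a pseudocount of 0.1 RPKM, 37 and 10 with 5 RPKM, 131 and 77 without a floor, 34 and 8 with a floor of 5 RPKM, 325 and 200 at 1.5-fold, and 53 and 29 at 3-fold. The reason for these shifts was not examined. No paired analysis was possible because there was 1 library per group. For the same reason no replicate could be left out.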
